A study of Mus musculus with 8 samples.

Results

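The mitochondrial ribosomal protein genes encode the proteins of the ribosome inside mitochondria. They were taken as every protein-coding gene whose GENCODE M21 symbol starts with Mrpl or Mrps followed by a digit. All 78 such genes of that annotation were present among the 14317 mouse genes of the deposited table, 49 named for the large subunit (Mrpl) and 29 for the small subunit (Mrps). RNA was sequenced from the livers of 8 female mice on a western diet (WD), a diet rich in fat and fructose, each prepared as its own library. For 8.5 weeks the 4 animals of the Con-DHT group had a 10 mm silastic pellet of dihydrotestosterone (DHT), a potent androgen, and the 4 of the Con-Veh group an empty one (vehicle, Veh). The labels give the genotype of both groups as WT, and pellets were implanted at 7 weeks of age. DHT reached the whole animal, so the comparison is not one of the liver alone.

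Mitochondrial ribosomes translate the few proteins that the mitochondrial genome encodes, all of them subunits of the oxidative phosphorylation complexes. Their rRNAs come from the mitochondrial genome, while every ribosomal protein is encoded in the nucleus, translated in the cytosol and imported, so the assembly of the particle depends on 2 genomes. Liver is rich in mitochondria, and NRF1, GABP (an ETS family factor) and YY1 are known to bind promoters of nuclear genes for mitochondrial proteins.

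Depth differed little between groups. The reads on mouse genes numbered 14240001 to 17815944 per library in Con-Veh and 13123962 to 15205299 in Con-DHT, of which 30123 to 38820 fell on the 78 genes. Reads of the mitochondrial genome made up 3.38% to 4.59% of the total. Of 6 hepatocyte markers none was called, with summed normalised read counts of 791785 to 1583200 in Con-Veh and 822645 to 997481 in Con-DHT. The summed level of 6 Kupffer cell markers was 5357 to 6766 in Con-Veh and 3636 to 4932 in Con-DHT, and 3 of them fell (Vsig4, Cd5l and Clec4f). For 6 endothelial markers the sums were 3679 to 4131 and 2927 to 3439, and 2 fell (Lyve1 and Stab2). Of 6 stellate cell and 5 cholangiocyte markers none was called, and the 1 lymphocyte marker among 6 that could be tested, Igkc, fell, with Con-DHT livers at or below 81.6 and Con-Veh livers at or above 87.8. In whole liver, fewer cells of a type and less RNA per cell cannot be told apart, and the part of these markers in the results on the mitochondrial ribosome was not tested.

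To ask whether DHT altered the transcripts of the mitochondrial ribosome, the normalised read counts of each gene were compared between Con-Veh and Con-DHT livers. No mitochondrial ribosomal protein gene passed the test in either direction. By limma with Benjamini-Hochberg adjustment over all 14312 genes tested (adjusted p of at most 0.05), 0 of 78 were called, while 7.21% of all genes tested were. With edgeR the count was also 0 (7.15% of all genes), and with DESeq2 it was 0 (11% of all genes). Unadjusted p-values below 0.05 were found for 5 of the 78 genes by limma, against 23.2% of all genes tested, for 5 by edgeR and for 3 by DESeq2. The groups did not overlap for 1 gene, Mrpl18, whereas they did not overlap for 15.1% of all genes.

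**Figure D1:**
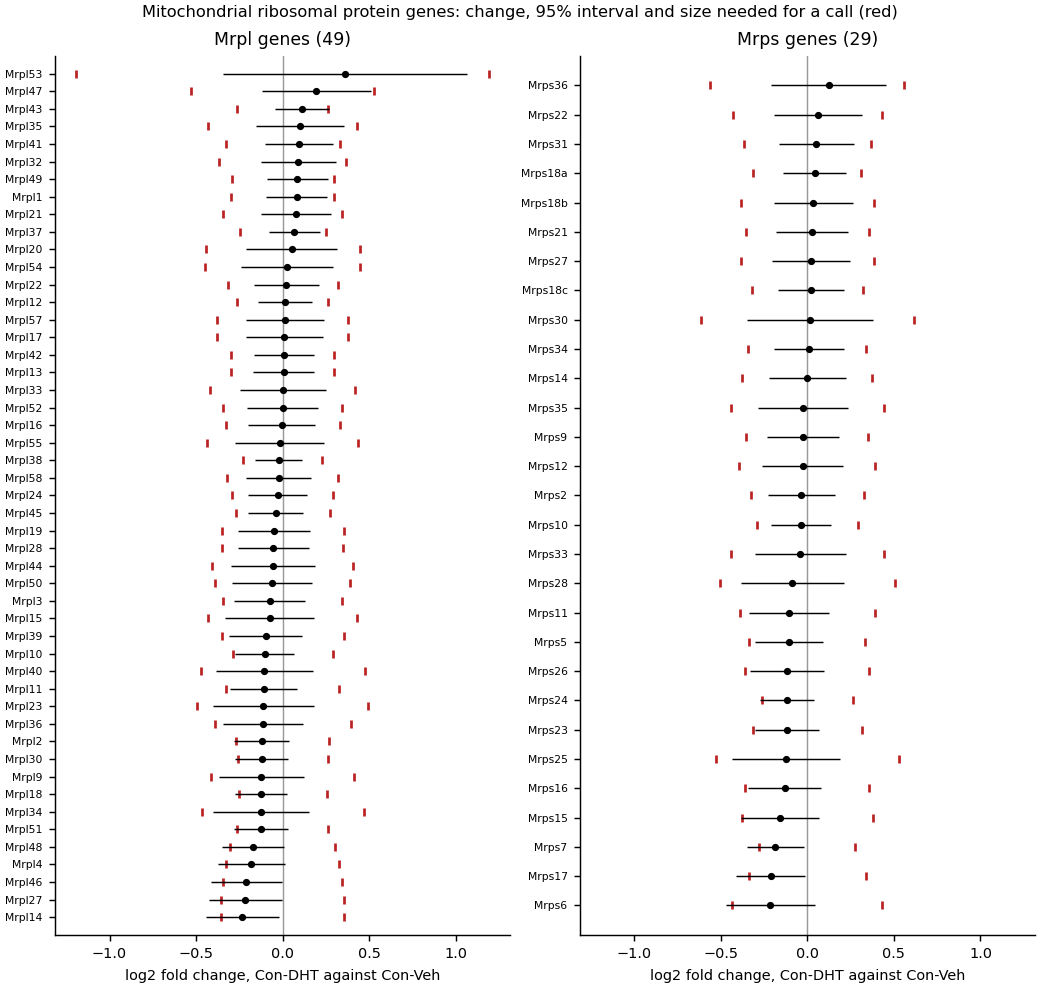
Log2 fold change of each of the 78 mitochondrial ribosomal protein genes in Con-DHT against Con-Veh livers (x axis), for 49 Mrpl genes (left) and 29 Mrps genes (right). Points are limma estimates, bars are 95% confidence intervals and red ticks mark the size of change that would have been called, which no point reaches.

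The changes were small as well as uncalled. Log2 fold changes ran from -0.23 (Mrpl14) to 0.36 (Mrpl53), with a median of -0.033 against -0.0081 for all genes. Their median size was 0.077, compared with 0.173 over all genes tested. Standard errors were also smaller in these genes, with a median of 0.094 against 0.143. Neither trait was particular to the family. For 80 nuclear subunits of oxidative phosphorylation the median size was 0.075 and the median SE 0.074. Given its own error, a typical member would have been called at a log2 fold change of 0.35, that is, an increase of 27.7%, and for all genes the median of that size was 0.54. The 95% confidence interval lay within ±0.5 for 76 of the 78 members, as it did for 48.1% of all genes, and it lay within ±1 for 77. The intervals of Mrpl47 and Mrpl53 reached 0.51 and 1.06. This precision belongs to the deposited scaling. With spike-in scaling the median SE of the members was 0.30 and the size needed for a call 0.92. Of the intervals, 0 then lay within ±0.5 and 76 within ±1. The spike-ins took 1.68% to 3.61% of the reads in Con-Veh libraries and 2.22% to 2.75% in Con-DHT libraries.

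**Figure D2:**
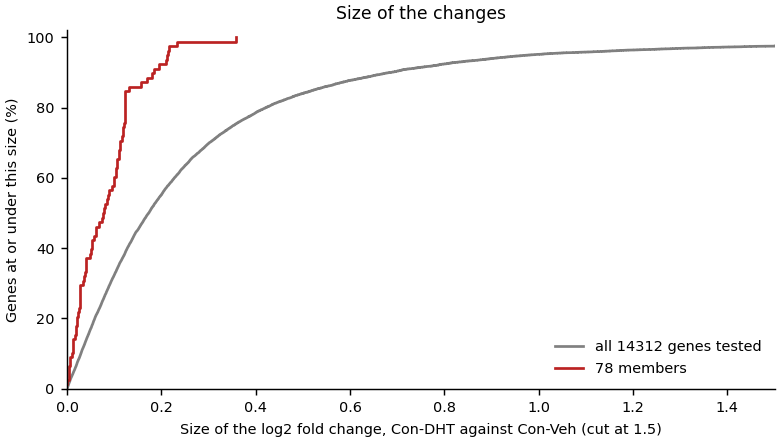
Cumulative share of genes (y axis, %) at or under a given size of log2 fold change between Con-DHT and Con-Veh (x axis, cut at 1.5), for the 78 mitochondrial ribosomal protein genes (red) and all 14312 genes tested (grey). The median size was 0.077 in the first and 0.173 in the second.

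Among members, 48 had a lower mean in Con-DHT and 30 a higher one, a split that turned to 5 lower and 73 higher when the libraries were scaled by the spike-in RNAs, and to 28 lower and 50 higher at equal totals without the Mup genes. These scalings moved the median of all genes to 0.19 and 0.090, and that of the members to 0.17 and 0.066. No direction can therefore be given for the family.

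Mrpl14, a large subunit protein, had the largest negative value. Its normalised read counts were 874, 935, 964 and 869 in the 4 Con-Veh livers and 723, 801, 910 and 682 in the 4 Con-DHT livers. Con-DHT replicate 3 lay within the Con-Veh range and the other Con-DHT livers below it. The means were 910.7 ± 46.6 and 779 ± 101 (SD, n = 4 each), a log2 change of -0.23 (SE 0.095, 95% confidence interval -0.44 to -0.022, adjusted p = 0.172 by limma).

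Mrps7, a protein of the small subunit head, had the lowest adjusted p of all members. Its counts were 996, 985, 912 and 961 in Con-Veh and 773, 925, 827 and 871 in Con-DHT, so that 1 Con-DHT liver exceeded the lowest Con-Veh liver. The change was -0.19 on the log2 scale (SE 0.074, limma adjusted p = 0.165), and with spike-in scaling it was 0.014. Mrpl27, of the large subunit, measured 561, 533, 496 and 446 in Con-Veh and 390, 443, 477 and 440 in Con-DHT (log2 fold change -0.22, limma adjusted p = 0.202). Its lowest Con-Veh liver lay inside the Con-DHT range.

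Mrps17, which belongs to the small subunit, measured 480, 484, 429 and 545 in Con-Veh and 423, 382, 420 and 444 in Con-DHT (log2 fold change -0.21, limma adjusted p = 0.186). Mrpl46, part of the central protuberance of the large subunit, measured 214, 231, 252 and 248 in Con-Veh and 199, 219, 205 and 192 in Con-DHT (-0.21, limma adjusted p = 0.201). Both had 1 Con-DHT liver above the lowest Con-Veh liver. The remaining 3 of the 8 largest negative values belonged to Mrps6 (-0.21), Mrpl4 (-0.18) and Mrpl48 (-0.17), with adjusted p-values by limma of 0.303, 0.242 and 0.242.

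Mrpl18, a large subunit protein, was the one member whose groups did not overlap. Its counts were 578, 588, 593 and 628 in Con-Veh and 566, 559, 553 and 514 in Con-DHT. The means of 597 ± 21.9 and 548 ± 23.3 (SD, n = 4 each) gave a difference of -0.12 on the log2 scale (SE 0.068, limma adjusted p = 0.314), which became 0.076 with spike-in scaling.

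Only Mrpl53 had a positive value larger in size than every negative one. Mrpl53, the member with the lowest mean count, measured 19.8, 24.1, 15.0 and 12.2 in Con-Veh and 15.7, 34.8, 17.4 and 26.1 in Con-DHT. The Con-DHT livers both overlapped and exceeded the Con-Veh range, and the lowest library had 14 reads. Its log2 fold change of 0.36 had an SE of 0.32 (limma adjusted p = 0.549). Mrpl47, at the polypeptide tunnel exit, measured 173, 138, 146 and 175 in Con-Veh and 143, 203, 175 and 205 in Con-DHT (log2 fold change 0.19, limma adjusted p = 0.455).

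Mrps36 (0.12), Mrpl43 (0.11), Mrpl35 (0.10), Mrpl41 (0.096), Mrpl32 (0.089) and Mrpl49 (0.086) completed the 8 largest positive values. Mrpl43 was the steadiest member in Con-Veh, with counts of 536, 535, 523 and 522, and measured 610, 525, 581 and 574 in Con-DHT. One Con-DHT liver thus lay within the Con-Veh range (limma adjusted p = 0.381). Over the 78 members the CV between mice had a median of 7.21% (Con-Veh) and 8.32% (Con-DHT), and it was highest for Mrpl53 in both groups, at 29.7% and 37.6%.

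**Figure D3:**
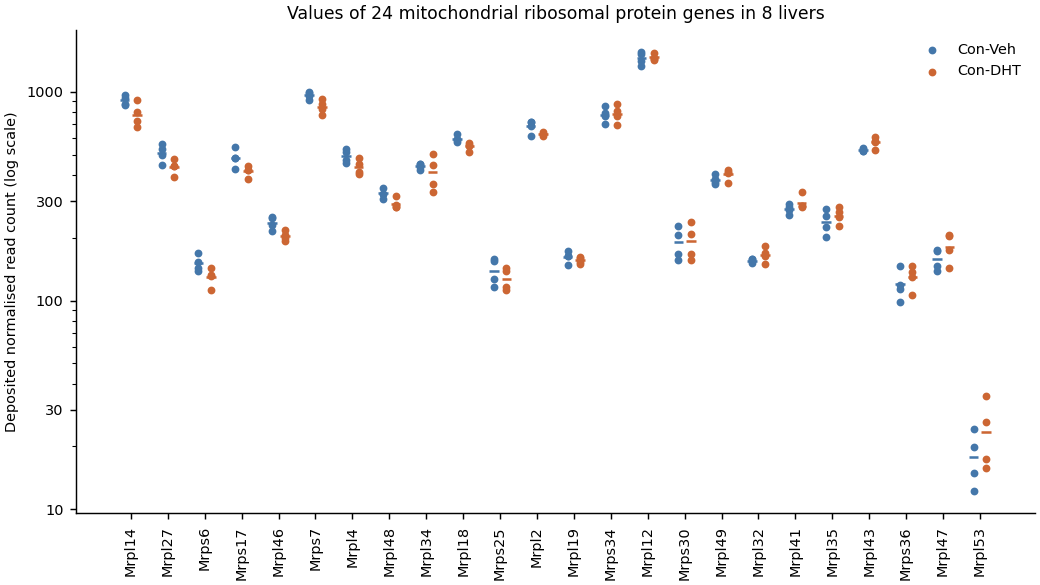
Deposited normalised read counts (y axis, log scale) of 24 mitochondrial ribosomal protein genes in each of 4 Con-Veh (blue) and 4 Con-DHT (orange) livers, with bars at the group means. The clouds of the groups overlap for every gene but Mrpl18, and Mrpl53 lies lowest.

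Members were next grouped by their place in the ribosome. The Mrpl genes had a median log2 fold change of -0.028, with 30 of 49 below 0, and the Mrps genes -0.037, with 18 of 29 below 0; 0 were called in either. Symbols and positions do not match for all proteins. Mrps18a and Mrps30 carry small subunit names but sit in the large subunit, and Mrps36 is a component of the 2-oxoglutarate dehydrogenase complex. By position, the medians were -0.023 for 51 large subunit genes and -0.039 for 26 small subunit genes. These medians carry no direction either, for the reason given for the whole family.

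Within the large subunit, 6 genes listed for the central protuberance (Mrpl38, Mrpl40, Mrpl46, Mrpl48, Mrpl52 and Mrpl58) all had values below 0, from -0.21 to -0.00040. With spike-in scaling, however, 1 of these 6 was below 0, and at equal totals 3 of 6. Mrpl58 is a peptidyl-tRNA hydrolase that became part of the ribosome. For 3 stalk genes, Mrpl10, Mrpl11 and Mrpl12, which recruit the translation factors, values ran from -0.11 to 0.013. Around the tunnel exit, where new proteins leave the ribosome, 6 genes (Mrpl17, Mrpl22, Mrpl23, Mrpl24, Mrpl45 and Mrpl47) were split with 3 above 0 and a median of -0.0091. In the small subunit, 5 genes of the head had a median of -0.037 and 4 genes of the platform one of -0.043. These groups are chosen lists that need not be complete. They were chosen after the values were seen, and none of their genes was called.

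Levels differed far more between members than between treatments. Per kilobase of annotated exon, the mean normalised read count over the 8 livers spanned from 20.3 ± 2.76 (SD) for Mrps25 to 951 ± 48.8 for Mrpl12, with a median of 149. Mrpl12, a stalk protein, was followed by Mrpl14 (890 ± 107), Mrpl34 (703 ± 90.4) and Mrpl2 (561 ± 37.2). Of the 77 pairs of neighbours in this order, 77 had ranges over the 8 livers that overlapped. The ranges were compared across livers and not within each liver. They therefore do not say whether 1 member exceeded the next in every liver. At the lower end, above Mrps25, stood Mrpl53 (26.1 ± 9.36), Mrps30 (28.7 ± 4.90) and Mrpl19 (29.2 ± 1.47). When the principal transcript replaced all exons as the length, Mrpl14 (1310) stood above Mrpl12 (1107) and Mrpl34 dropped to the eighth place.

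Mrpl12 had the highest mean count of the members. It measured 1550, 1334, 1521 and 1402 in Con-Veh and 1440, 1449, 1423 and 1538 in Con-DHT, with the Con-DHT livers inside the Con-Veh range. It changed by 0.013 on the log2 scale (SE 0.070, 95% confidence interval -0.14 to 0.17, limma adjusted p = 0.939). Mrpl34 spread more widely in Con-DHT, at 332, 445, 505 and 363, than in Con-Veh, at 439, 453, 452 and 425 (log2 fold change -0.12, limma adjusted p = 0.606).

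Some of the values may hold reads of other genes, or miss reads that belong to them. In GENCODE M21, 33 of the 78 genes share exon bases with another gene. The share was at least 50% for 3 of them: Mrpl53 (88.0% with Gm42688, same strand), Mrps25 (69.8% with Nr2c2, opposite strand) and Mrps34 (63.4% with Mapk8ip3, opposite strand). The strand setting of the counting is not given in the sources used here, and reads of overlapping genes cannot be told apart. Of these 3 genes, 2 (Mrps25 and Mrpl53) had the lowest levels per kilobase, and the part of the overlap in this was not tested. Among the 45 members that share no exon bases, 0 were called and the median log2 fold change was -0.027.

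The genes lie on 17 chromosomes, most often on chromosome 11 (11 genes), 17 (8) and 6 (7). A protein-coding gene of opposite direction started within 1000 bases upstream for 18 of 78 members (23.1%), compared with 9.76% of 12841 protein-coding genes tested. None of the 17 such neighbours that were tested was called. Among them were Sars2, the mitochondrial seryl-tRNA synthetase, 172 bases from Mrps12 (log2 fold change 0.14), and Fau, a cytosolic ribosomal protein gene, 59 bases from Mrpl49 (-0.22, limma adjusted p = 0.181).

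Promoter windows from RefSeq (GRCm38.p6, 250 bases before to 50 after the start) were at hand for 69 of the 78 genes, and both strands were searched for 4 motifs. The NRF1 motif was found in 13 (18.8%), compared with 11.2% of 10155 tested protein-coding genes with a window and 4.60% of all 32851 windows. The gene shares count a motif in any window of a gene, while the share of all windows counts single windows of any gene. Gene and window shares are therefore not like for like, here and for the motifs below. CCGGAAG, bound by GABP and other ETS factors, was present in 26 (37.7%), against 19.1% and 8.86%. The YY1 motif stood in 5 (7.25%), against 2.29% and 0.852%, and TATAAA of the TATA box in 5 (7.25%), against 9.35% and 13.6%. The ETS motif ends and the YY1 motif begins with AAG, so 1 stretch can hold both. A match is a description of the letters and not a binding site. The median log2 fold change was 0.0016 in the 26 genes with the ETS motif and -0.053 in the 43 without it, and -0.041 in the 13 with the NRF1 motif against -0.033 in the 56 without. For the YY1 motif it was 0.041 in 5 genes and -0.039 in the 64 others. The 250 bases upstream of the start are printed for 4 genes, with the motif in capitals: the member with the highest mean count (Mrpl12, NRF1 motif at 81 bases, chr11:120484387-120484636, plus strand), a gene with an ETS motif near the start and a wide spread (Mrpl34, chr8:71464676-71464925, plus strand), one with both motifs (Mrpl17, chr7:105811088-105811337, minus strand) and the one whose groups did not overlap (Mrpl18, ETS motif, chr17:12916092-12916341, minus strand).
Mrpl12: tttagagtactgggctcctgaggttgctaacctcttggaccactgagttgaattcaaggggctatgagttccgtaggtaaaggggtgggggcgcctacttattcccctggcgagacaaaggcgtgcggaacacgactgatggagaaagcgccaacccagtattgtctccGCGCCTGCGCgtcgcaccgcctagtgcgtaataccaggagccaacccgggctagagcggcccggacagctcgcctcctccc
Mrpl34: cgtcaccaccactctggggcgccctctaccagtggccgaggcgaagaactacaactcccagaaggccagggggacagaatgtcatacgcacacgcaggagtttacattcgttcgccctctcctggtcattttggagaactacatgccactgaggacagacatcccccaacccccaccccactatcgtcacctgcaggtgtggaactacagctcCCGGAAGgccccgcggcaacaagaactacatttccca
Mrpl17: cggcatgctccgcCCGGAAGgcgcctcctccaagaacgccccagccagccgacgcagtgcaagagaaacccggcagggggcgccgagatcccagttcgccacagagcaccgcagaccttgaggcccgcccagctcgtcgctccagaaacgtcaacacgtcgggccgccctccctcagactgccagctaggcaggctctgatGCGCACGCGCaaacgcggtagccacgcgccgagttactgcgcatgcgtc
Mrpl18: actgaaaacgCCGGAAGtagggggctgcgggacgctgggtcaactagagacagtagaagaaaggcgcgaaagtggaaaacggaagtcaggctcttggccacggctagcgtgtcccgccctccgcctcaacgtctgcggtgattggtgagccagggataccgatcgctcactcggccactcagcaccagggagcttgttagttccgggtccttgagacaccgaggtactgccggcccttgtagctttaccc

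The livers themselves differed little in their sum over members. The 78 normalised read counts added up to 33545 ± 522 in Con-Veh (32996 to 34153) and 32408 ± 1003 in Con-DHT (30916 to 33054, SD, n = 4 each). These sums rest on the deposited scaling, and their direction depends on it. As a share of the reads on mouse genes, the members were on average higher in Con-DHT. By that share Con-DHT replicate 1 lay within the Con-Veh range and the other Con-DHT livers above it. The sums therefore give no direction for the family. With the deposited scaling the lowest sum was that of Con-DHT replicate 1. In this liver 61 of the 78 genes lay below the Con-Veh mean, compared with 42, 42 and 40 in the other Con-DHT livers. Without this liver the split of the members was 41 lower and 37 higher, with 0 called.

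Lists of related genes were examined for comparison. They were chosen with earlier results of these data known. Of 6 components of the mitochondrial ribosome with other symbols, 5 were tested under their own name and 0 were called: Dap3 (log2 fold change -0.072), Aurkaip1 (-0.019), Ptcd3 (0.037), Gadd45gip1 (-0.099) and Chchd1 (-0.021). Among 26 genes for ribosome assembly and rRNA modification, 1 was called, while 7.21% of all genes tested were. Dhx30, an RNA helicase needed for assembly of the mitochondrial ribosome, rose. Its normalised read counts were 571, 596, 572 and 623 in Con-Veh and 745, 751, 767 and 798 in Con-DHT, with every Con-DHT liver above every Con-Veh liver. The log2 fold change was 0.37 (SE 0.065, limma adjusted p = 0.0080). The call was lost with spike-in scaling (0.57, adjusted p = 0.49), where the SE was 0.30, and the adjusted p ranged from 0.00011 to 0.49 over all alternatives.

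None of 15 mitochondrial translation factors (median 0.055) and none of 20 mitochondrial aminoacyl-tRNA synthetases (median 0.017) was called. Tufm, the elongation factor that delivers aminoacyl-tRNA, measured 1420 ± 42.7 in Con-Veh and 1418 ± 121 in Con-DHT. Of 16 genes for the upkeep and transcription of mitochondrial DNA, 1 was called, against 7.21% of all genes tested. Top1mt, the mitochondrial topoisomerase, fell from 426 ± 38.6 to 306 ± 14.4 (log2 fold change -0.47, SE 0.088, limma adjusted p = 0.011). Its call was lost with spike-in scaling (-0.27, limma adjusted p = 0.92), where the SE was 0.30. The adjusted p ranged from 0.00032 to 0.92 over all alternatives. Tfam, which packs and transcribes this DNA, measured 668 ± 35.6 and 654 ± 35.0. Of 10 regulators of mitochondrial biogenesis 0 were called. The coactivator Ppargc1b had the highest value, 0.65, with an adjusted p of 0.096 by limma and from 0.045 (DESeq2) to 0.21 over the alternatives.

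The products that this ribosome makes are the 13 proteins of the mitochondrial genome, and 0 of their transcripts were called. Their median log2 fold change was -0.15, with 12 of 13 below 0, but 0.050 with 4 of 13 below 0 under spike-in scaling. Levels were very uneven among them. Con-Veh means were 17.5 for mt-Atp8, 25.8 for mt-Co2, 53.3 for mt-Atp6, 84.2 for mt-Nd4l, 131 for mt-Co3 and 306 for mt-Nd3. The lowest of the others was 10730 (mt-Nd6) and the highest 220087 (mt-Co1). How well the low values measure their transcripts was not tested, and the counts over all 13 carry this limit. Both mitochondrial rRNAs had negative values, mt-Rnr1 -0.26 (SE 0.17, limma adjusted p = 0.40) and mt-Rnr2 -0.43 (SE 0.16, limma adjusted p = 0.149). With spike-in scaling they ran from -0.23 to -0.062. How well these counts measure the rRNAs was not tested. Among 80 nuclear subunits of oxidative phosphorylation 1 was called, against 7.21% of all genes tested. Cox7a2, a subunit of cytochrome c oxidase, rose from 712 ± 36.4 to 896 ± 46.3 (log2 fold change 0.33, SE 0.070, limma adjusted p = 0.020). The call was lost with spike-in scaling (0.53, SE 0.30, adjusted p = 0.58), without Con-Veh replicate 2 (0.31, adjusted p = 0.061) and without Con-DHT replicate 2 (0.31, adjusted p = 0.060), and the adjusted p ranged from 0.0019 to 0.58 over all alternatives. The median over the 80 genes was 0.020.

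**Figure D4:**
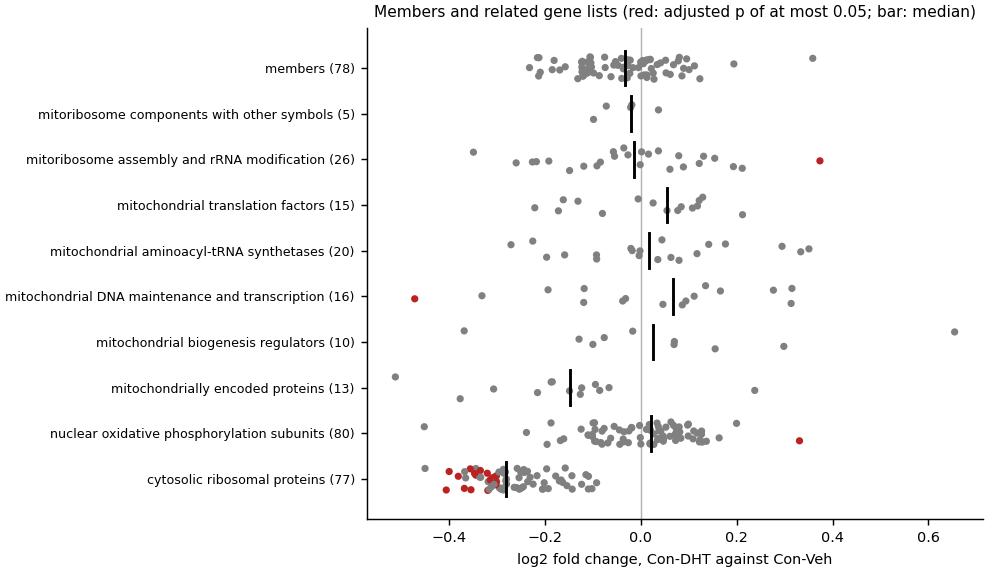
Log2 fold change in Con-DHT against Con-Veh (x axis) of every tested gene of the mitochondrial ribosomal protein family (78) and of 9 related lists, 1 point per gene. Red points are genes called by limma and black bars are medians. The 16 red points of the cytosolic ribosomal proteins lie below 0, and no member is red.

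The cytosolic ribosome offered a second comparison, since its proteins are made by the same livers from another gene family. Of 80 listed cytosolic ribosomal protein genes 77 were tested, and 16 fell, against 2.61% of all genes tested that were called lower. All 77 had negative values (median log2 fold change -0.28), as did 61 of 77 with spike-in scaling (median -0.083). The number called was not stable: it was 0 with spike-ins, 9 with edgeR, 28 with DESeq2, from 2 (without Con-DHT replicate 1 or 2) to 9 when any 1 of 7 livers was left out, and 30 without Con-DHT replicate 4. The sum over these genes was 196439 ± 10311 in Con-Veh and 163141 ± 16472 in Con-DHT (SD, n = 4 each).

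Set against that sum, which removes the scaling of the libraries, the sum of the mitochondrial ribosomal protein genes amounted to 16.1%, 17.5%, 17.1% and 17.7% in the Con-Veh livers and 20.4%, 22.4%, 19.3% and 17.9% in the Con-DHT livers. The highest Con-Veh liver lay just under the lowest Con-DHT liver, replicate 4. The SDs were 0.679 and 1.89 percentage points (n = 4 each). The medians of both families differed by 0.25 on the log2 scale, and by 0.18 to 0.28 over all alternatives, with 0.25 under spike-in scaling. This difference was noticed in these data and is given without a test.

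**Figure D5:**
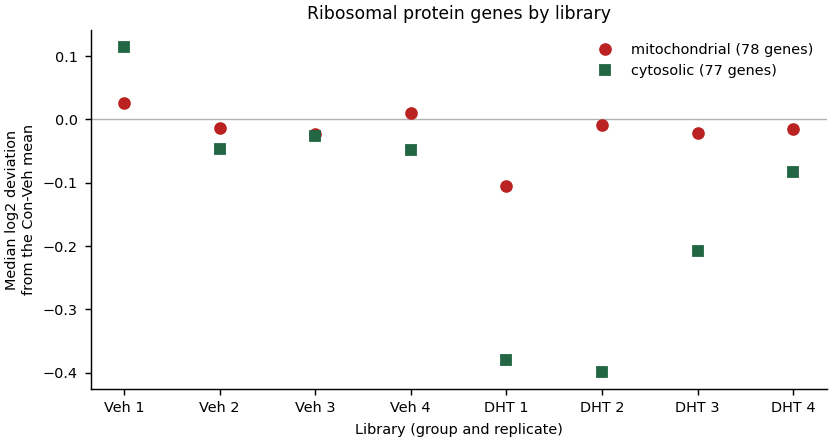
Median log2 deviation from the Con-Veh mean (y axis) of the 78 mitochondrial (red circles) and 77 cytosolic (green squares) ribosomal protein genes in each of 8 livers (x axis). In the Con-DHT livers the cytosolic medians lie between -0.40 and -0.084 and the mitochondrial ones between -0.10 and -0.0086.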

How the data were processed

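Liver RNA of 8 female mice was sequenced, 4 per group, with groups and replicate numbers taken from the labels. Per the labels and the methods, the authors trimmed the reads with Trimmomatic, aligned them with STAR, counted them with featureCounts and used DESeq2; the submitters' processing notes name GRCm39. The deposited values are a normalized signal: read counts divided by 1 size factor per library. Whole reads were recovered from them (100% of values were whole within 0.01 of a read, or the same share per 1000 reads above that); for Con-Veh replicate 3, whose step of 0.998 is close to 1, 3.20% were whole before division. Positions, lengths and overlaps came from GENCODE M21 and promoters from RefSeq, both on GRCm38, and were matched by gene identifier or symbol. The 14312 genes with a mean of at least 10 were tested on log2(value + 1) with limma 3.58.1 (lmFit, eBayes with trend; R 4.3.3), adjusted by Benjamini-Hochberg at 0.05, after a check on simulated data. The pseudocount shrinks the changes of low genes. edgeR 4.0.16 (1024 genes called) and DESeq2 1.42.0 (1569) were run on the recovered reads. In the simulated data 4.79% of limma calls were false, as were 5.36% of edgeR and 15.6% of DESeq2 calls. The larger DESeq2 counts carry this limit. There limma called 65 of 100 genes changed by 1 on the log2 scale and 94 of 100 changed by 2. The size needed for a call is the change at which a gene's p would reach 0.0036, the largest p called. Named members were the 8 largest values in each direction, the 4 highest and 4 lowest per kilobase, those whose groups did not overlap and those sharing at least 50% of their exon bases. Members and lists were chosen with earlier results of these data known. Nothing states that the mice came from separate litters or cages. The p-values set the difference between groups against the spread among the mice within them. A litter or cage shared within a group could not be told apart from DHT. Replicates differed beyond sampling noise in all 12 pairs (chi-square per degree of freedom of 19.1 to 61.2). Alternatives were another pseudocount, filter, scaling, trend, weighting, replicate block or test, and leaving out each liver. A detail of the genotype of all 8 mice is not reported here.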

Additional observations from a re-analysis of the deposited data

Results flagged for a closer look

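Mrpl41, a large subunit protein, measured 331 in Con-DHT replicate 2, far above the next highest Con-DHT liver at 285 (284.5), while the Con-Veh livers lay between 258 and 291. The gap exceeded Dixon's critical value for 4 samples. It was the 1 such case in 48 groups of named members, and 8 of 156 groups over all members showed one, where chance gives about 1 in 20.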

How the results depend on the processing

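No member was called under any of the 21 alternatives or among the 45 members sharing no exon bases. The median log2 fold change of members moved to 0.17 with spike-in scaling and 0.066 at equal totals without the Mup genes, and lay between -0.047 and -0.017 with 1 liver left out. All genes called (1032) became 648 at a mean of at least 50, 637 with spike-ins, 1569 with DESeq2 and 638 to 897 with 1 liver left out. The 19 calls in the related lists became 0 with spike-ins, 8 at equal totals, 8 with quantile normalization, 5 without trend, 12 with edgeR, 34 with DESeq2 and 4 to 33 with 1 liver left out. Of 503 values of named members 483 kept their direction. With spike-ins Mrps7 turned to 0.014, Mrpl4 to 0.017, Mrpl48 to 0.029, Mrpl34 to 0.075, Mrpl18 to 0.076, Mrps25 to 0.075, Mrpl2 to 0.078 and Mrpl19 to 0.15 (0.050 at equal totals). With 1 liver left out, 3 values near 0 changed sign: Mrps30 ranged from -0.094 (without Con-DHT replicate 2) to 0.11 (without Con-Veh replicate 4), Mrps34 from -0.045 (without Con-DHT replicate 4) to 0.067 (without Con-DHT replicate 1) and Mrpl12 from -0.027 (without Con-Veh replicate 2) to 0.045 (without Con-Veh replicate 1). The cause was not tested. The lowest adjusted p of a named member was 0.063 (Mrpl14 without Con-DHT replicate 3, limma).

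With the replicate number as a block, 0 members, 700 genes and 6 list genes were called. Same-numbered livers correlated at -0.19, -0.0060, -0.022 and -0.076, and differently numbered ones at -0.16 to 0.26. These values gave no sign that the numbers pair the livers. With 4 livers per group, a weak pairing could not be seen this way. There were 4 mice per group and a median of 304 reads in a member's lowest library. A typical member needed an estimated log2 fold change of 0.35 to be called, and members ranged from 0.23 (Mrpl38) to 1.19 (Mrpl53). With spike-in scaling the typical size was 0.92, where 0 calls therefore say little. This size applies to the estimate and is not a limit for the true change. Mrpl53 was too low to be tested at a mean of at least 50.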
